A study of Mus musculus with 39 samples.

Results

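Skeletal muscle fibre genes were followed through 39 libraries of bulk mouse tumours. The group holds 38 genes, chosen by a list of gene symbols, out of 39179 genes in the count table: 13 genes of fast fibres, 7 genes of slow fibres and 18 genes that both fibre types use. All 38 were found in the table and all 38 passed the filter on low counts, so every one of them was tested. The tumours grew in C57BL/6 mice from injected cells of a Braf-mutated melanoma, and every group carried the same tumour. Treatment began on day 7 after injection and lasted 2 or 5 days. The vehicle groups received a mixture of DMSO, PEG400 and water in 200 µl bidaily doses. The EPAT groups received 30 mpk of drug that blocks EP2 and EP4, both receptors of prostaglandin E2 (3 mg/mL, 200 µl, bidaily). The anti-PD-1 groups received 200 µg of antibody against the checkpoint receptor PD-1 per dose, and the combination groups received anti-PD-1 and EPAT together. Each of the 8 groups has 5 libraries, except anti-PD-1 day 2 with 4. The groups follow the labelled treatment and day, and the first number of the sample titles differs from that of the rest of the group in 3 libraries. These are anti-PD-1 day 5 replicate 5, whose title carries the number of the anti-PD-1 day 2 libraries, EPAT day 5 replicate 1, with the number of EPAT day 2, and EPAT day 2 replicate 5, with the number of EPAT day 5. The labels do not say what this number stands for, so every comparison that uses an anti-PD-1 or EPAT group depends on the labelled day of these libraries. Without the 3, again 0 members were called in all 17 comparisons, and the members' medians given below kept their sign and moved by at most 0.311 on the log2 scale. No tumour-free skin or muscle and no untreated tumour is among the libraries analysed here, and the labels used here do not give the site of injection. The protocol speaks of tumours isolated on day 4, whereas the sample labels give 2 and 5 days. The labels do not state whether each library stands for its own mouse, so the p-values measure only the spread between these libraries, which may be technical. Replicate numbers below follow the order of deposition and serve as names.

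Skeletal muscle is built of long fused cells whose sarcomeres slide thick myosin filaments along thin actin filaments when calcium binds troponin. Fast fibres and slow fibres use separate genes for the same parts: a fast and a slow myosin heavy chain, myosin light chains, the 3 troponin subunits and myosin-binding protein C. Fast fibres rely on glycolysis and quick calcium uptake, slow fibres on oxidative metabolism, and most mouse limb and trunk muscles are dominated by fast fibres. Muscle lies directly under the skin of a mouse, and most of these genes are not known as genes of melanoma cells or leukocytes. Fewer fibres in a sample and less RNA per fibre cannot be told apart in these data.

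The libraries held 8385741 to 15558113 counts (median 12193825), from a kit that reads the 3′ ends of transcripts. In principle a transcript then gives about the same number of reads whatever its length, but whether this held here was not tested. Levels are CPM, that is counts divided by library sizes scaled with edgeR's trimmed mean of M-values (TMM), and 3 counts, the limit that a count of 0 allows, correspond to 0.177 to 0.396 CPM depending on the library. Of the markers of the labelled tumour, Mitf ran from 30.5 to 82.4 CPM (median 45.4), while Tyr, Tyrp1, Dct, Mlana and Pmel, which encode pigment enzymes and melanosome proteins, did not pass 0.0647, 0, 0.194, 0.259 and 0.657 CPM in any library. A handful of libraries stood apart by markers of other tissues. Vehicle day 2 replicate 1 had summed adipocyte markers of 1571 CPM and B and plasma cell markers of 208 CPM. Keratinocyte markers summed to 136 CPM in vehicle day 2 replicate 2 and to 100.4 CPM in combination day 5 replicate 3. Nerve markers summed to 262 CPM in combination day 2 replicate 2. The fifth such library is anti-PD-1 day 5 replicate 4, which had the highest muscle content of all. Other libraries also held such markers and are not among the 5. Adipocyte markers summed to 711 CPM in anti-PD-1 day 2 replicate 3, and lung markers exceeded 50 CPM in 23 libraries. Where leaving these 5 out moved a median by more than 0.5 on the log2 scale, the value without them, or without the 1 library it rests on, is given beside it.

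Fibre genes were counted in every library, in very unequal amounts. The 38 genes took 0.012% of all counts in EPAT day 2 replicate 1 (95% Wilson interval 0.0114 to 0.0126%) and 3.14% in anti-PD-1 day 5 replicate 4 (3.13 to 3.15%), and these intervals cover counting error only. In EPAT day 2 replicate 1, Tpm2 and Eno3, which have a base level in every library, made up 775 and 204 of the 1446 counts, while Myh4 had 4 and Ckm 0. The 13 fast genes together stood at 12.8, 274, 8.92, 8.79 and 336 CPM in the vehicle libraries of day 2, at 2405, 254, 5.99 and 2341 CPM with anti-PD-1, at 9.11, 2559, 745, 696 and 874 CPM with EPAT and at 479, 243, 14.4, 509 and 382 CPM with the combination. On day 5 the same sum was 1655, 751, 618, 902 and 369.6 CPM with vehicle, 65.1, 248, 1378, 11476 and 7.51 CPM with anti-PD-1, 498, 1682, 380.0, 71.4 and 212 CPM with EPAT and 839, 211, 1909, 569 and 426 CPM with the combination. In 7 libraries the fast genes summed to less than 20 CPM: 3 of vehicle day 2 and 1 each of anti-PD-1 day 2, EPAT day 2, combination day 2 and anti-PD-1 day 5. No library of vehicle day 5, EPAT day 5 or combination day 5 was that low. The low library of anti-PD-1 day 5 is replicate 5, 1 of the 3 with a title number of another group, and without it the remaining 6 are all of day 2. The vehicle groups did not overlap between days, with a highest sum of 336 CPM on day 2 and a lowest of 369.6 CPM on day 5, whereas every other pair of groups overlapped. In that comparison 0% of all genes were called, and no member. The share of all genes that also do not overlap between the vehicle groups is not given here, so the gap is not a result about the fast genes.

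**Figure D1:**
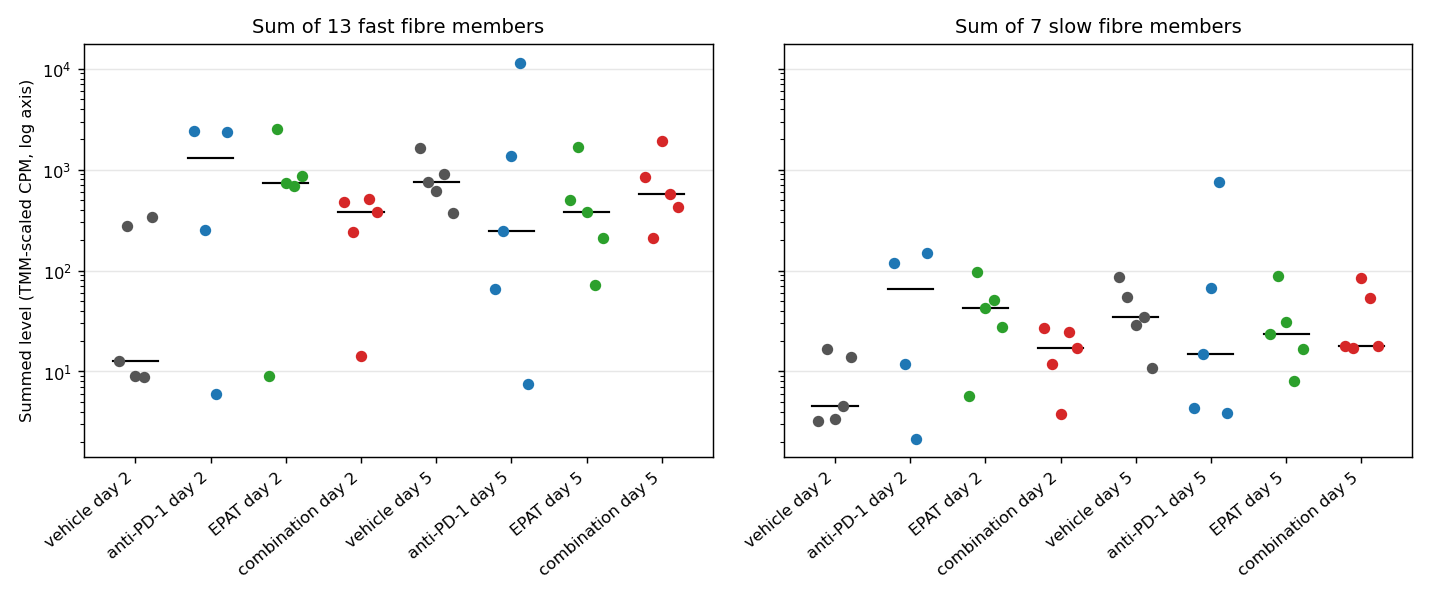
Summed level of the 13 fast genes (left) and the 7 slow genes (right) in each of the 39 libraries, in TMM-scaled CPM on a log axis. Each point is 1 library and each bar the median of its group. The fast sum runs from 5.99 to 11476 CPM, and 7 points lie under 20 CPM.

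Single genes of the fast and shared lists show the spread. Myh4, the myosin heavy chain of the fastest fibres (type IIb; GRCm38 chr11:67238029-67260446, plus strand), stood on day 2 at 1.66, 66.7, 0.482, 0.453 and 91.6 CPM with vehicle and at 575, 68.4, 0.0832 and 432 CPM with anti-PD-1. It stood at 0.361, 540.2, 149, 106 and 228 CPM with EPAT and at 93.5, 81.96, 1.44, 131 and 134 CPM with the combination. Each of these groups held 1 or more libraries at 1.66 CPM or less beside libraries many times higher. On day 5 Myh4 was at 344, 115, 143, 188 and 104 CPM with vehicle and at 19.2, 54.9, 301, 2348 and 0.4 CPM with anti-PD-1. It was at 109, 317, 61.9, 12.7 and 23.9 CPM with EPAT and at 225, 29.1, 419, 98.1 and 113 CPM with the combination. As labelled, the anti-PD-1 group of day 5 held both the highest Myh4 level of all libraries (replicate 4) and one of the lowest (replicate 5, the library with a title number of another group).

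Acta1, skeletal actin of the thin filament (chr8:123891769-123894751, minus strand), gave the same picture. On day 2 its levels were 2.56, 142, 1.69, 1.42 and 202 CPM with vehicle, 1136, 149, 0.499 and 1216 CPM with anti-PD-1, 0.992, 1225, 399, 471 and 394 CPM with EPAT and 335, 112, 3.32, 319 and 144 CPM with the combination. On day 5 they were 681, 461, 401, 456 and 243 CPM, 21.4, 130.1, 678, 5201 and 1.12 CPM, 272, 920.1, 215, 48.7 and 137 CPM and 226, 107, 1196, 251 and 257 CPM in the same order of treatments. The libraries that were low for Myh4 were low for Acta1, and the libraries with high Myh4 had high Acta1. Mylpf, the regulatory light chain of fast myosin, ran over the 39 libraries from 1.25 to 1249 CPM (median 48.1), and Myl1, its essential light chain, from 0.32 to 829 CPM (median 20.9). Ckm, the muscle creatine kinase that buffers ATP, ran from 0 to 701 CPM (median 23.8).

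The promoters of 3 members are shown because most of the fast and shared genes varied together from library to library, and because Myh7, the slow myosin described below, varied apart from them. RefSeq (GRCm38.p6) gave promoter entries, 250 bases before to 50 after a start, for 30 of the 38 members. Abra, Actn3, Cox6a2, Neb, Tcap, Tnni2, Tnnt3 and Trdn had none. The 250 bases before the most upstream start are printed 5′ to 3′ in the gene's direction, with motif matches on either strand in capitals. The motifs searched were CAGCTG, the general E-box CANNTG that contains it, the TATA motif TATAAA, the CArG box bound by serum response factor and the MEF2 site.
Acta1, chr8:123894776-123895025, minus strand: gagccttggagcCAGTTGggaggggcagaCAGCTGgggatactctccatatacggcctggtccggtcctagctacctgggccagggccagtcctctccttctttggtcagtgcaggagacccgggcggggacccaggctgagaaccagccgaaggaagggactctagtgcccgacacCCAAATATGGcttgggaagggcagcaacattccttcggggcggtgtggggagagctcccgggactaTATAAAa
Myh4, chr11:67237562-67237811, plus strand: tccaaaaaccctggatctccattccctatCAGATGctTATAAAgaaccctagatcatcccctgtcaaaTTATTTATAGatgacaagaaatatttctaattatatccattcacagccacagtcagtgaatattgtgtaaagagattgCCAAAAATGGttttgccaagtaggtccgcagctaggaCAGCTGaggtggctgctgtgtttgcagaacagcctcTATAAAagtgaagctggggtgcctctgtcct
Myh7, chr14:54994627-54994876, minus strand: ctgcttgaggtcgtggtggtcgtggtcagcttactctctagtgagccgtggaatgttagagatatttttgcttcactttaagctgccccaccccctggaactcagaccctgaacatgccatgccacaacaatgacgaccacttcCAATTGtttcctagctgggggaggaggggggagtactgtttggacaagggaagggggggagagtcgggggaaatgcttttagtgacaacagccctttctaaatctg
The Acta1 stretch holds 1 CArG box, 1 CAGCTG and 1 TATA motif. The Myh4 stretch holds 1 CArG box, 1 MEF2 site, 1 CAGCTG and 3 TATA motifs, of which 1 overlaps the MEF2 site. The Myh7 stretch holds 1 E-box of the general kind and none of the other motifs. The 3 stretches do not stand for their lists. In the 300-base windows, Myl3 had a CArG box and Myl2 had CAGCTG and a TATA motif, and both followed Myh7 in level. The fast genes Tnnc2 and Mybpc2 had only E-boxes of the general kind. The part of these motifs in the levels was not tested. Over the 300-base windows, CAGCTG was found in 48.6% of the 37 promoters of members and in 16.3% of all 32851 promoters in the table. CANNTG was found in 89.2% against 72.3%, the TATA motif in 21.6% against 13.6%, the CArG box in 8.11% against 1.63% and the MEF2 site in 13.5% against 3.19%. These are matches of letters and not sites of binding.

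The fast genes differed in how closely each followed their sum. In the 32 libraries with at least 500 counts in the fast sum, the standard deviation of log2(gene CPM + 0.1) minus log2(fast sum) was lowest for Tnnt3, fast troponin T, at 0.173. It was 0.230 for Tnni2, the inhibitory subunit of fast troponin, 0.237 for Atp2a1, the calcium pump of fast fibres, and 0.261 for Tnnc2, the calcium-binding subunit. It was 0.426 for Actn3, the fast-fibre actinin that anchors thin filaments at the Z-disc, 0.372 for Mybpc2, fast myosin-binding protein C, and 0.523 for Casq1, which stores calcium in the sarcoplasmic reticulum. Pvalb, the calcium buffer parvalbumin, was at 0.582. Among the 3 adult fast myosins the value was 0.365 for Myh4, 0.583 for Myh1 (type IIx) and 0.909 for Myh2 (type IIa), so Myh2 varied most against the fast sum, over a range of 3.78 on the log2 scale. Each gene is itself part of the fast sum, which lowers its value. Myh1, Myh2 and Myh4 lie in 1 cluster of near-identical genes on chromosome 11, and how reads were split between them is uncertain. Myh2 stood at 0, 55.5, 31.2, 23.6 and 11.05 CPM in the EPAT libraries of day 2 and at 6.32, 0.642, 0.144, 5.14 and 5.803 CPM in the combination libraries of that day.

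**Figure D2:**
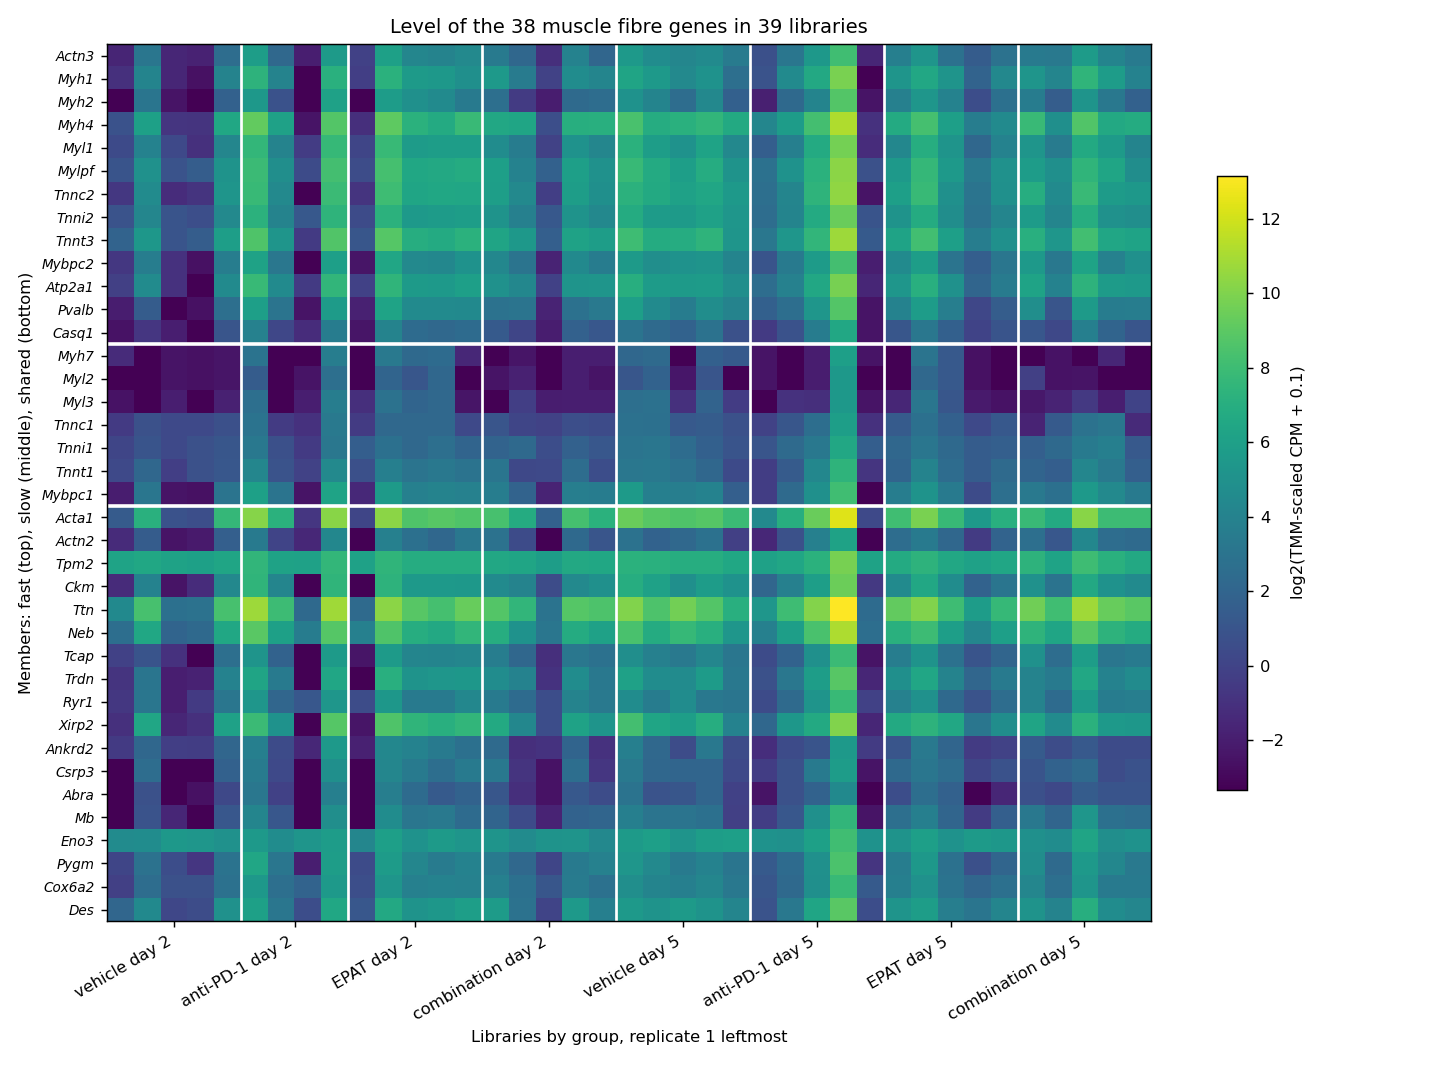
Level of each of the 38 genes (rows) in each of the 39 libraries (columns, grouped, replicate 1 leftmost), as log2(TMM-scaled CPM + 0.1). The fast block brightens and darkens library by library as 1, while Myh7, Myl2 and Myl3 in the slow block stay dark in all combination libraries, and Eno3 and Tpm2 never fall under 18.4 and 58.5 CPM.

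None of the 38 genes passed the test in any treatment comparison of day 2. The test was edgeR's quasi-likelihood test on the counts of all 39 libraries, with Benjamini-Hochberg adjustment over the 15070 genes tested and a threshold of 0.05. The 3 comparisons with vehicle share the 5 vehicle libraries of that day, 3 of which were among the lowest in muscle RNA. For anti-PD-1 against vehicle, 0 of 38 members were called, against 0% of all genes. All 38 fitted fold changes were positive, with a median log2 fold change of 3.26 beside -0.015 over all genes. At an unadjusted p under 0.05 there were 29 of 38 members, against 7.12% of all genes, and DESeq2 called 0 members. Most members rose and fell together from library to library. Here and below, a count of members, or of their signs, is thus not a count of independent results and cannot be weighed against the share of all genes. The fast, slow and shared genes had medians of 3.32, 3.56 and 2.84. The smallest p-values belonged to Myl3 (5.68 ± 1.82 (SE, edgeR adjusted p = 0.524)), Cox6a2 (2.94 ± 1.02 (SE, edgeR adjusted p = 0.563)) and Casq1 (3.82 ± 1.35 (SE, edgeR adjusted p = 0.563)), and the fold change of Myh4 was 3.08 ± 1.55 (SE, edgeR adjusted p = 0.714).

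For EPAT against vehicle on day 2, 0 of 38 members were called against 0% of genes, and DESeq2 called 0. The median log2 fold change was 2.81 with all 38 values positive, and 22 of 38 members had an unadjusted p under 0.05, against 6.23% of all genes. Myl3 (5.13 ± 1.79 (SE, edgeR adjusted p = 0.697)), Casq1 (3.65 ± 1.31 (SE, edgeR adjusted p = 0.697)) and Pvalb (4.08 ± 1.49 (SE, edgeR adjusted p = 0.703)) had the smallest p-values. For the combination against vehicle on day 2, 0 of 38 were called against 0%, with 0 also by DESeq2 and 0 members at an unadjusted p under 0.05, against 10.2% of genes. The median was 1.30, and 35 values were positive and 3 negative. Casq1 (1.86 ± 1.34 (SE, edgeR adjusted p = 0.678)) had the smallest p-value of the 38, followed by Cox6a2 and Tcap with log2 fold changes of 1.33 ± 0.98 and 1.84 ± 1.36 (SE). In these contrasts the adipocyte markers went the other way, with medians of -0.89, -2.13 and -3.28 over 8 genes, as did the keratinocyte markers with -5.06, -3.96 and -4.80 over 4 genes tested, and none of either was called. Summed, the adipocyte markers ran 13.6 to 1571 CPM in the vehicle group, 42.01 to 711 with anti-PD-1, 29.9 to 229 with EPAT and 22.6 to 119 with the combination. Their part in the result was not tested. Without the 5 libraries that stand apart the medians of the muscle genes were 3.29, 2.97 and 1.56, again with 0 called.

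On day 5 the comparisons with vehicle also called 0 of 38 members. For anti-PD-1 against vehicle, 0% of all genes were called, and DESeq2 called 0 members. The median log2 fold change of the members was 1.66, with 38 of 38 values positive and 4 members at an unadjusted p under 0.05, against 7.15% of genes. Those values rest on 1 library: without anti-PD-1 day 5 replicate 4 the median was -0.95. Tnni1 (2.04 ± 0.73 (SE, edgeR adjusted p = 0.645)), Tnnt1 (2.58 ± 1.02 (SE, edgeR adjusted p = 0.645)) and Tpm2 (1.00 ± 0.46 (SE, edgeR adjusted p = 0.645)) had the smallest p-values, and without that library their log2 fold changes were -0.15, -0.10 and -0.40. For EPAT against vehicle, 0 of 38 were called against 0% of genes, 0 by DESeq2 and 0 at an unadjusted p under 0.05 (against 1.7% of genes), with a median of -0.49. That median ran from -1.36 to -0.18 when 1 library was left out. Actn3, Ckm and Ankrd2 had the smallest p-values there, with log2 fold changes of -0.88 ± 1.16, -0.99 ± 1.30 and -0.80 ± 1.12 (SE). For the combination against vehicle, 0 of 38 were called against 0.0265% of genes (4 genes, none a member), 0 by DESeq2 and 2 at an unadjusted p under 0.05, against 16.5% of genes. The median was -0.08, and the 13 fast genes lay between -0.585 and 0.667. Without the 5 libraries that stand apart it was -0.66. The 2 members were Myh7 and Myl3, which are described below.

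The combination was also set against each single treatment. On day 2, 0 of 38 members were called against anti-PD-1 (0% of genes) and 0 against EPAT (0%), with 0 by DESeq2 in both. At an unadjusted p under 0.05 there were 4 members in each, against 4.35% and 7.36% of genes. The medians were -1.95 and -1.52, and all 38 values were negative in both. Both comparisons use the same combination libraries. On day 5 the count was 0 of 38 against anti-PD-1 (0.0199% of genes) and 0 against EPAT (0%), with 0 by DESeq2 in both. At an unadjusted p under 0.05 there were 7 members and 1 member, against 6.31% and 12.7% of genes. The medians were -1.70 and 0.41. The first changed sign without anti-PD-1 day 5 replicate 4, to 0.86, and the second without combination day 5 replicate 3, to -0.24. The slow myosin genes Myh7, Myl2 and Myl3 had the smallest p-values in the comparisons with EPAT and, on day 5, with anti-PD-1. Ankrd2, a stretch-responsive protein of the sarcomere I-band, came after Myh7 and Myl3 against anti-PD-1 on day 2, with a log2 fold change of -2.92 ± 1.22 (SE, edgeR adjusted p = 0.925).

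Between days, no member was called with any treatment, and the day differences of the treatments were not ranked by a test. Day 5 against day 2 gave 0 of 38 called with vehicle (0% of genes), a median log2 fold change of 2.68 with all 38 values positive, and 17 members at an unadjusted p under 0.05, against 5.49% of genes. Myl3 (5.27 ± 1.79 (SE, edgeR adjusted p = 0.839)), Pvalb (4.03 ± 1.49 (SE, edgeR adjusted p = 0.857)) and Casq1 (3.35 ± 1.31 (SE, edgeR adjusted p = 0.857)) had the smallest p-values. With anti-PD-1, 0 of 38 were called (0% of genes; 2 members and 6.98% of genes at an unadjusted p under 0.05), and the median of 1.08 became -1.40 without anti-PD-1 day 5 replicate 4. Tnni1, Eno3 and Tpm2 led that comparison with 2.10 ± 0.80, 1.09 ± 0.46 and 0.94 ± 0.50 (SE), and all 3 were negative without that library. With EPAT, 0 of 38 were called (0% of genes; 0 members and 7.23% of genes at an unadjusted p under 0.05) and the median was -0.67. It was -0.02 without EPAT day 2 replicate 2 and -1.61 without EPAT day 5 replicate 2. Ankrd2, Abra and Csrp3, of which Abra activates serum response factor and Csrp3 is a stretch-sensing Z-disc protein, had the smallest p-values with -1.60 ± 1.13, -1.18 ± 1.17 and -1.09 ± 1.23 (SE). With the combination, 0 of 38 were called (0.0133% of genes; 0 members and 11.7% of genes at an unadjusted p under 0.05), and the median of 1.19 became 0.49 without the 5 libraries that stand apart. Mb, the oxygen store myoglobin, came first with 2.37 ± 1.27 (SE, edgeR adjusted p = 0.459), followed by Tpm2 and Tnnc1 with 0.82 ± 0.46 and 1.59 ± 0.97 (SE). DESeq2 called 0 members in all 4 of these comparisons.

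Whether a treatment effect differed between the days was tested as an interaction. Each interaction subtracts the same day 5 against day 2 difference of the vehicle groups, for which the members' median was 2.68. In 3 of the 5 vehicle libraries of day 2 the fast genes summed to less than 20 CPM. The interactions are therefore not separate results. For anti-PD-1, 0 of 38 members were called (0% of genes, 0 at an unadjusted p under 0.05, against 3.34% of genes) with a median of -1.59. Leaving out anti-PD-1 day 5 replicate 4 gave -4.23, and limma-voom gave -7.86. For EPAT it was 0 of 38 (0% of genes, 14 at an unadjusted p under 0.05, against 5.22% of genes) with a median of -3.36 and all 38 values negative. For the combination it was 0 of 38 (0% of genes, 0 at an unadjusted p under 0.05, against 3.5% of genes) with a median of -1.37, which was -2.20 without the 5 libraries that stand apart. Myl3 had the smallest p-value in each, with log2 differences of -4.36 ± 2.23, -5.83 ± 2.22 and -4.58 ± 2.64 (SE). Next came Abra and Myh7 with -2.79 ± 1.77 and -3.32 ± 2.37 for anti-PD-1, Casq1 and Pvalb with -4.23 ± 1.72 and -4.76 ± 1.93 for EPAT, and Myh7 and Pvalb with -4.87 ± 3.91 and -2.35 ± 1.92 (SE) for the combination. DESeq2 called 0 members in each. Over all 17 comparisons the smallest adjusted p of any member by edgeR's quasi-likelihood test was 0.221, for Myh7.

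**Figure D3:**
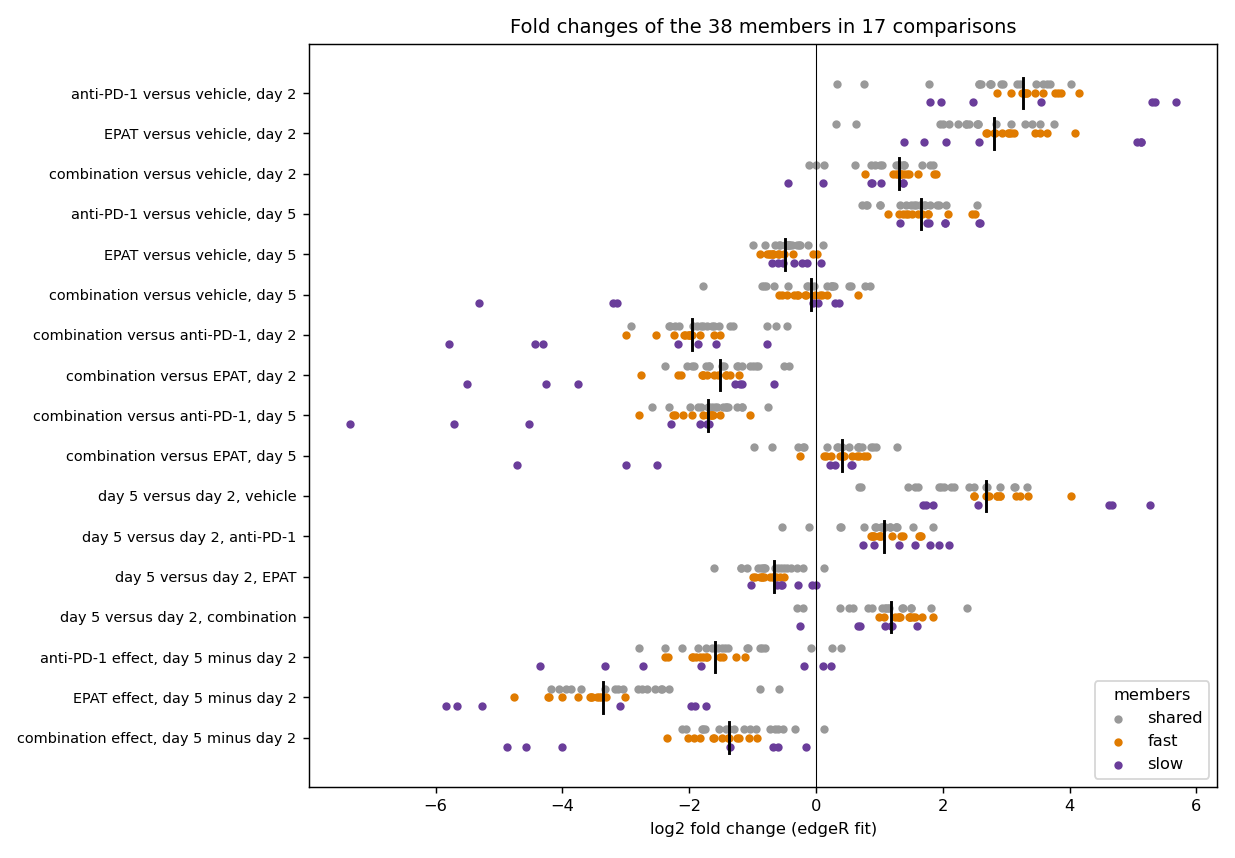
Fitted log2 fold change (edgeR) of each member in the 17 comparisons, with 1 dot per gene, coloured by fast, slow or shared list, and a bar at the median of all 38. No dot passed the threshold. Most of the fast and shared genes lie near each other, but shared genes such as Eno3, Tpm2 and Ankrd2 lie apart from them in some comparisons. Myh7, Myl2 and Myl3 are the 3 slow dots far to the left wherever the combination is set against a single treatment or, on day 5, against vehicle.

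The slow genes split into 3 kinds. Myh7, Myl2 and Myl3 encode the heavy chain, regulatory light chain and essential light chain of slow (type I) myosin, and they were mostly counted in the same libraries, with exceptions given below. Myh7 (chr14:54970684-54994626, minus strand) had counts of 4, 0, 1, 1 and 1 in the vehicle libraries of day 2, 93, 0, 0 and 170 with anti-PD-1, 0, 156, 72, 68 and 3 with EPAT and 0, 1, 0, 2 and 2 with the combination. On day 5 its counts were 54, 53, 0, 47 and 42 with vehicle, 1, 0, 2, 725 and 1 with anti-PD-1, 0, 88, 18, 1 and 0 with EPAT and 0, 1, 0, 3 and 0 with the combination. It thus reached 10 counts in 12 of the 39 libraries, and none of these 12 was a combination library.

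The libraries without Myh7 were not only those with little muscle RNA. Myh4 had at least 100 counts in 32 libraries, and 20 of these had fewer than 10 counts of Myh7. By group, the libraries with at least 10 Myh7 counts among those with at least 100 Myh4 counts were 0 of 2 in vehicle day 2, 2 of 3 in anti-PD-1 day 2, 3 of 4 in EPAT day 2 and 0 of 4 in combination day 2. On day 5, vehicle had 4 of 5 such libraries, anti-PD-1 had 1 of 4, EPAT had 2 of 5 and the combination had 0 of 5. Without the 3 libraries with a title number of another group, EPAT had 3 of 3 on day 2 and 2 of 4 on day 5, and the other groups were as given. Counts of Myh7 per 100 counts of Myh4 were 1.31, 4.46, 0, 1.71 and 2.39 in the vehicle libraries of day 5. They were 0, 0.244, 0, 0.241 and 0 in the combination libraries of that day, so 4 of the 5 vehicle libraries lay above all 5 combination libraries and the remaining one was at 0. Combination day 5 replicate 3 shows the gap most plainly, with 5098 counts of Myh4 and 0 of Myh7, whereas vehicle day 5 replicate 5 had 1759 and 42. This pattern was noticed after the values were seen.

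In levels, Myh7 was at 4.52, 5.14, 0, 3.21 and 2.48 CPM with vehicle on day 5 and at 0, 0.071, 0, 0.236 and 0 CPM with the combination. The fitted log2 fold change was -5.31 ± 2.04 (SE, edgeR adjusted p = 0.221), the most negative of all 15070 genes in that comparison, and it did not pass the threshold. Against anti-PD-1 on day 5 it was -7.34 ± 2.04 (SE, edgeR adjusted p = 0.472) and against EPAT -4.72 ± 2.07 (SE, edgeR adjusted p = 0.355). On day 2 the values were -5.79 ± 2.00 (SE, edgeR adjusted p = 0.925) against anti-PD-1 and -5.50 ± 1.96 (SE, edgeR adjusted p = 0.538) against EPAT, again the most negative of all genes. With 4 counts in all over the combination libraries of day 5 and 5 over those of day 2, such fitted values depend on the prior count. Other annotated genes overlap Myh7, 1 on its strand and 4 on the other, and reads of overlapping genes may not be told apart. Against vehicle on day 2, where the vehicle libraries held 7 counts of Myh7 in all, the value was -0.44 ± 2.65 (SE). The comparison with anti-PD-1 on day 5 rests on replicate 4, the only library of that group with more than 2 counts of Myh7. Without the 5 libraries that stand apart, the log2 fold change was 0.025.

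**Figure D4:**
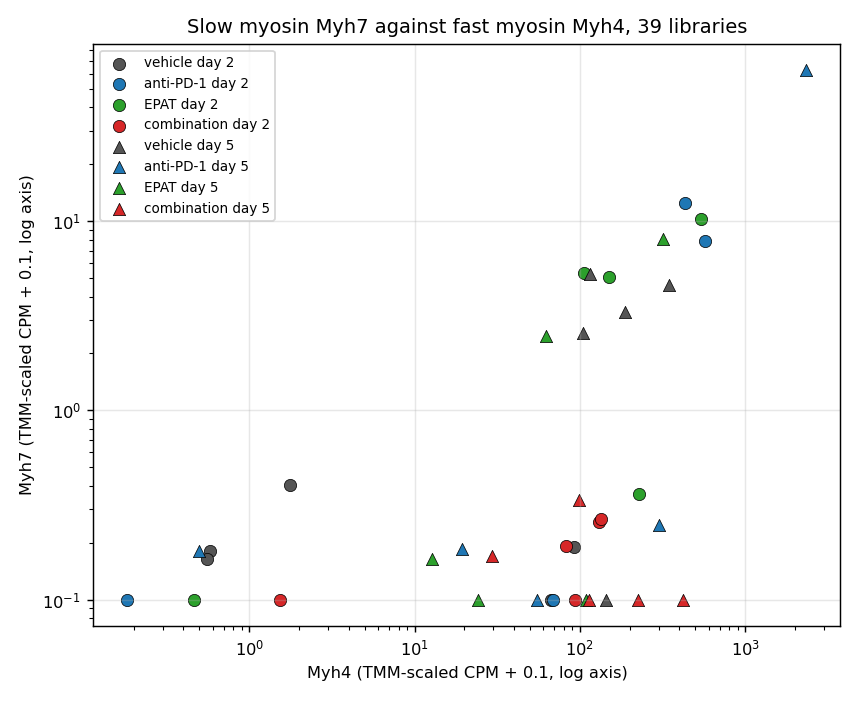
Slow myosin Myh7 against fast myosin Myh4 in the 39 libraries, in TMM-scaled CPM + 0.1 on log axes, with circles for day 2, triangles for day 5 and 1 colour per treatment. The upper cluster holds the 12 libraries with at least 10 counts of Myh7, all with Myh4 at 61.9 CPM or more. All 10 combination libraries (red) lie along the bottom, 9 of them with Myh4 between 29.1 and 419 CPM.

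Myl3 and Myl2 followed Myh7. Myl3 was at 6.28, 7.07, 0.383, 3.76 and 0.649 CPM with vehicle on day 5, 0, 0.42, 0.373, 44.3 and 0.0799 CPM with anti-PD-1, 0.247, 8.81, 1.98, 0.129 and 0.078 CPM with EPAT and 0.108, 0.213, 0.575, 0.157 and 0.877 CPM with the combination. On day 2 it was at 0.0754, 0, 0.161, 0 and 0.18 CPM, 6.42, 0, 0.166 and 12.4 CPM, 0.361, 7.27, 3.86, 4.62 and 0.087 CPM and 0, 0.733, 0.144, 0.158 and 0.166 CPM in the same order. Myl2 was at 2.01, 3.59, 0.0957, 1.91 and 0 CPM with vehicle on day 5 and at 0.753, 0.071, 0.0821, 0 and 0 CPM with the combination. All 12 libraries with at least 10 counts of Myh7 had at least 10 of Myl3, and 11 had at least 10 of Myl2, the exception being vehicle day 5 replicate 5 with 42 counts of Myh7, 11 of Myl3 and 0 of Myl2. Conversely, combination day 5 replicate 1 had 7 counts of Myl2 and 0 of Myh7. For the combination against vehicle on day 5 the fold changes were -3.21 ± 1.48 (SE, edgeR adjusted p = 0.279) for Myl3 and -3.13 ± 1.77 (SE, edgeR adjusted p = 0.367) for Myl2. Against EPAT, Myl3 and Myl2 had -3.76 ± 1.56 and -4.26 ± 1.84 on day 2 and -2.51 ± 1.49 and -2.99 ± 1.78 on day 5 (SE). Against anti-PD-1 they had -4.31 ± 1.6 and -4.44 ± 1.88 on day 2 and -4.53 ± 1.51 and -5.71 ± 1.77 on day 5 (SE), and the values of day 5 changed sign without anti-PD-1 day 5 replicate 4. Ventricular heart muscle also uses these 3 genes. Of the 6 heart markers listed, Myh6, Myl7, Nppa and Ryr2 did not pass 0.129, 0.129, 0.333 and 0.452 CPM in any library. The other 2 were counted in all 39 libraries: Nppb, a natriuretic peptide, ran from 1.94 to 31.6 CPM (median 9.73) and Tnni3, cardiac troponin I, ran from 0.25 to 5.15 CPM (median 1.45). In anti-PD-1 day 5 replicate 4, the library richest in Myh7, they stood at 3.45 and 3.97 CPM. The part of heart muscle in the result was not tested.

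The slow troponins formed the second kind, counted in every library and highest in the library with the most muscle. Tnni1, slow troponin I, was at 0.98, 1.87, 1.13, 1.62 and 1.98 CPM with vehicle on day 2 and at 8.03, 8.72, 5.65, 3.21 and 1.83 CPM on day 5. It was at 3.74, 4.95, 1.37, 3.32 and 2.07 CPM with the combination on day 2 and at 3.01, 4.76, 11.2, 13.5 and 2.34 CPM on day 5. Its lowest value was 0.583 CPM (7 counts), so it was never at 0, unlike Myh7. Tnnt1, slow troponin T, was at 8.96, 9.79, 7.37, 4.51 and 1.18 CPM with vehicle and 3.87, 2.91, 18.6, 10.00 and 3.12 CPM with the combination on day 5, and ran over all libraries from 0.48 to 166 CPM (median 4.496). Tnnc1, the slow and cardiac troponin C, was at 6.95, 6.69, 2.298, 2.67 and 1.59 CPM and 0.215, 2.41, 7.39, 8.97 and 0.292 CPM in these groups and ran over all libraries from 0.215 to 59.8 CPM (median 1.91). Its 0.215 and 0.292 CPM are 2 and 3 counts in combination day 5 replicates 1 and 5, where Myh4 had 2093 and 1158 counts. Tnnc1 was thus at or under the limit of 3 counts in these libraries despite their muscle RNA. For the combination against vehicle on day 5 the log2 fold changes of Tnni1, Tnnt1 and Tnnc1 were 0.36 ± 0.72, 0.29 ± 0.99 and -0.04 ± 0.92 (SE), none of them called. The third kind is Mybpc1, slow myosin-binding protein C, which stood at 49.3, 13.6, 13.4, 15.5 and 3.07 CPM with vehicle and 10.1, 6.603, 47.1, 21.1 and 11.2 CPM with the combination on day 5. Its log2 ratio to the fast sum had a standard deviation of 0.475, near that of the fast genes, beside 2.12 for Myh7, 1.75 for Myl2 and 1.67 for Myl3.

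As a sum, the 7 slow genes gave a median of 5.66 counts per 100 counts of the fast genes over the 38 libraries with at least 30 slow counts. The ratio ran from 2.15 in combination day 5 replicate 1 to 62.4 in EPAT day 2 replicate 1. The highest ratios were in the libraries with the least muscle RNA, where the slow sum is mostly counts of Tnni1, Tnnt1 and Tnnc1. Counting Myh7, Myl2 and Myl3 alone, which was chosen after the data were seen, gave a median of 0.187 per 100 over the 32 libraries with at least 500 fast counts. Over the 38 libraries with at least 30 slow counts, which include muscle-poor ones with few counts in either sum, it was 0.387. That sum stood at 0.774, 2.103, 0.0775, 0.986 and 0.846 per 100 fast counts in the vehicle libraries of day 5 and at 0.103, 0.168, 0.0344, 0.0692 and 0.206 in the combination libraries of that day.

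Among the 18 genes of both fibre types, the structural proteins of the sarcomere tracked the fast genes, some more closely than others. Ttn, the elastic spring of the sarcomere, ran from 4.91 to 9107 CPM (median 367) and Neb, the ruler of the thin filament, from 3.78 to 2197 CPM (median 96.9). The standard deviation of the log2 ratio to the fast sum was 0.468 for Ttn and 0.435 for Neb, beside 0.312 for Acta1, the lowest of the 18. Tcap, which caps titin at the Z-disc, ran from 0 to 240.5 CPM (median 8.62), and Actn2, the Z-disc actinin of all fibres, ran from 0 to 72.2 CPM (median 4.46). Des, the intermediate filament desmin, which smooth muscle also makes, ran from 0.938 to 500.3 CPM (median 25.98). Xirp2, a binding protein of the intercalated disc and myotendinous junction, ran from 0 to 1037 CPM (median 67.4). The standard deviation against the fast sum was 0.425 for Tcap, and larger for Des, Actn2 and Xirp2, at 0.617, 0.624 and 0.649.

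Calcium release and energy genes did likewise. Ryr1, the calcium release channel, ran from 0.161 to 221 CPM (median 10.03), and its partner Trdn, triadin, from 0 to 464 CPM (median 16.4). Pygm, muscle glycogen phosphorylase, had a standard deviation of 0.339 against the fast sum and ran from 0.166 to 355 CPM (median 10.8). Cox6a2, a muscle subunit of cytochrome c oxidase, ran from 0.754 to 219 CPM (median 10.5), and Mb ran from 0 to 182 CPM (median 3.98). Against the fast sum their standard deviations were 0.379 and 0.636, so Mb followed less closely. The remaining pair had a base level in every library and stood higher in the library with the most muscle. Eno3, muscle enolase, never stood below 18.4 CPM, and Tpm2, beta-tropomyosin, never below 58.5 CPM, also in the 7 libraries with hardly any Myh4. In the vehicle libraries of day 2, Eno3 was at 24.1, 25.2, 43.4, 39.4 and 31.8 CPM and Tpm2 at 76.1, 89.3, 73.1, 65.6 and 81.6 CPM. Replicates 1, 3 and 4, which were low in Myh4, overlapped replicates 2 and 5 in Eno3 and lay slightly under them in Tpm2. In anti-PD-1 day 5 replicate 4, Eno3 reached 278 CPM and Tpm2 867 CPM, and Tpm2 was at 266 CPM in combination day 5 replicate 3.

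The stretch-responsive genes Ankrd2 and Csrp3 were the most variable of the 18 apart from Eno3, with standard deviations of 1.10 and 0.997 against the fast sum. Ankrd2 was at 0.18, 19.6, 15.5, 10.8 and 6.699 CPM with EPAT and 13.7, 1.23, 0.25 and 46.3 CPM with anti-PD-1 on day 2, and at 5.16, 0.367, 0.433, 3.799 and 0.415 CPM with the combination. Per 1000 counts of Acta1, where Acta1 had at least 100 counts, Ankrd2 stood at 16.01, 38.7, 23.01 and 17.02 in EPAT day 2 replicates 2 to 5 and at 15.4, 3.28, 11.9 and 2.88 in combination day 2 replicates 1, 2, 4 and 5. In the libraries where the ratio could be formed, the highest combination value, 15.4, lay just under the lowest EPAT value, 16.01. This ratio was picked after its values were seen and was not tested. No share of other genes that separate these groups as well is given here, so the gap is not a result about Ankrd2. On day 5 the ratio was 20.2, 9.88, 3.34, 20.5 and 5.33 with vehicle and 11.4, 12.6, 1.99, 5.01 and 4.94 with the combination, and these ranges overlapped. Ankrd2 itself was not called in any comparison. Csrp3 ran from 0 to 53.9 CPM (median 3.48) and Abra from 0 to 22.9 CPM (median 1.62).

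A further 30 fibre genes, listed apart from the 38 as a wider reading of the same tissue, behaved alike. In the list are Z-disc and M-line proteins, calcium channel subunits, metabolic enzymes and the ubiquitin ligases of atrophy, and 29 of the 30 passed the filter. In all 17 comparisons 0 of 29 were called in either direction. Their median log2 fold change was 2.39 for anti-PD-1 and 2.17 for EPAT against vehicle on day 2 (13 and 17 genes at an unadjusted p under 0.05, against 7.12% and 6.23% of all genes), and 2.24 for day 5 against day 2 with vehicle (12 genes, against 5.49%). Myot, the Z-disc protein myotilin, had 4.65 ± 1.46 (SE, edgeR adjusted p = 0.524) with anti-PD-1 and 4.30 ± 1.42 (SE, edgeR adjusted p = 0.697) with EPAT. Ckmt2, the mitochondrial creatine kinase, had 5.05 ± 1.70 (SE, edgeR adjusted p = 0.697) with EPAT. Ldb3, another Z-disc protein, had 3.59 ± 1.21 (SE, edgeR adjusted p = 0.524) with anti-PD-1.

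Genes of developing and regenerating fibres did not follow the adult fast genes. Myh3 and Myh8, the embryonic and perinatal myosin heavy chains, lie in the same cluster as Myh4 and mark newly formed fibres. On day 5 Myh3 was at 0.753, 4.46, 4.595, 1.85 and 0.236 CPM with vehicle, 0.0856, 1.05, 18.4, 143 and 0.0799 CPM with anti-PD-1, 2.63, 1.44, 1.32, 0.321 and 3.899 CPM with EPAT and 0, 2.06, 19.6, 26.1 and 0.39 CPM with the combination. On day 2 it did not pass 1.43 CPM in any library. The libraries with the most Myh3 on day 5 were replicates 3 and 4 of anti-PD-1 and replicates 3 and 4 of the combination, at 18.4, 143.2, 19.6 and 26.1 CPM. Counts of Myh3 and Myh8 together came to 58.8 per 100 counts of Myh4 in combination day 5 replicate 4 and 45.9 in EPAT day 5 replicate 5, whereas the highest value on day 2 was 5.43. Actc1, the cardiac actin that immature fibres also use, was at 0.257, 0.839, 25.1, 124 and 0.0799 CPM with anti-PD-1 and 0.323, 2.27, 19.1, 13.8 and 0 CPM with the combination on day 5, high in the same libraries. None of the 6 developmental genes was called in any comparison. For day 5 against day 2, Myh3 had 6.14 ± 1.66 (SE, edgeR adjusted p = 0.528) with anti-PD-1 and 5.45 ± 1.57 (SE, edgeR adjusted p = 0.229) with the combination, and Actc1 had 5.13 ± 1.44 (SE, edgeR adjusted p = 0.54) with anti-PD-1.

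**Figure D5:**
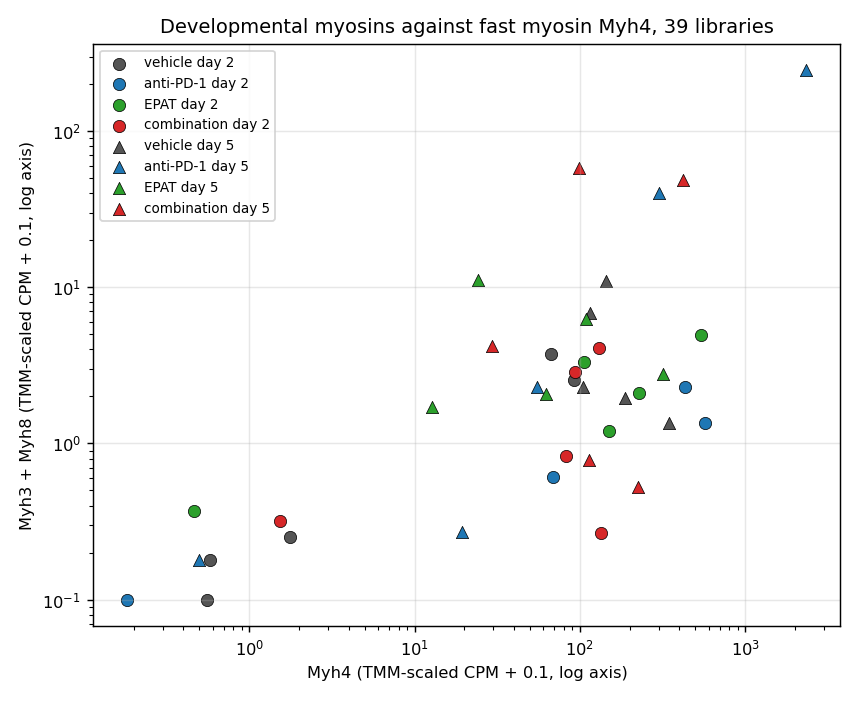
Summed embryonic and perinatal myosin (Myh3 + Myh8) against adult fast myosin Myh4 in the 39 libraries, in TMM-scaled CPM + 0.1 on log axes, with circles for day 2, triangles for day 5 and 1 colour per treatment. The 4 highest points, at 40.1 to 244 CPM, are day 5 libraries of anti-PD-1 or the combination, and the highest day 2 library is at 4.87 CPM.

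Among the 12 genes of muscle progenitors and fusion, 9 passed the filter and 0 were called in any comparison. Myog, the transcription factor that turns myoblasts into fibres, was at 0, 2.83, 7.09, 71.9 and 0 CPM with anti-PD-1 and 0, 2.698, 6.49, 7.32 and 0.195 CPM with the combination on day 5. Mymk, the membrane protein myomaker that fuses myoblasts, was at 0, 0.839, 6.27, 38.4 and 0 CPM and 0, 0.639, 6.57, 6.22 and 0.292 CPM in these groups, and its log2 fold change for day 5 against day 2 with anti-PD-1 was 6.07 ± 1.73 (SE, edgeR adjusted p = 0.54). Both were highest in the libraries that held the most Myh3. Pax7, the marker of satellite cells, was counted in 19 libraries and did not pass 2.85 CPM. Pax3, a factor of both muscle precursors and the melanocyte lineage, ran from 6.64 to 62.9 CPM (median 45.7) and was lowest in anti-PD-1 day 5 replicate 4, the library with the most muscle.

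Markers of neighbouring tissues were measured beside these results. Smooth muscle markers summed to 582 CPM in anti-PD-1 day 5 replicate 4, and to 51.2 to 144 CPM in the vehicle and 62.8 to 263 CPM in the combination libraries of day 5. Keratinocyte markers ran 1.84 to 7.67 CPM with vehicle and 0.43 to 100.4 CPM with the combination on day 5, and adipocyte markers 26.1 to 270.1 and 21.6 to 99.5 CPM. Lung markers exceeded 50 CPM in 23 libraries and did not pass 1.19 CPM in the other 16. No gene of these lists was called in any comparison, and their part in the muscle results was not tested.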

How the data were processed

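RNA of bulk tumours was sequenced as 39 libraries from 500 ng of input with a 3′ mRNA kit. Per the submitters' processing notes, bcl2fastq, STAR, featureCounts and limma were used on mm10 (GRCm38), and the strand setting is not given in the sources used here. The authors deposited raw counts per gene and log2 CPM values of 16095 genes, which equal log2(count + 0.5) plus a constant per library within 5e-09. GENCODE vM21 symbols matched 37693 of 39179 identifiers. Other annotated genes overlap 22 members on the opposite strand and 4 on the same strand.

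Counts were fitted with edgeR 4.0.16 (quasi-likelihood, R 4.3.3), 1 mean per group over all 39 libraries, trimmed mean of M-values, minimum count 10 and minimum total 15, Benjamini-Hochberg adjustment over 15070 genes and a threshold of 0.05. The fit was tested on simulated data. Alternatives were DESeq2 1.42.0, limma 3.58.1 (trend, and voom with quality weights), other scalings and filters, a replicate block and leaving out libraries (singly, the 5 that stand apart, and the 3 with a title number of another group, both sets chosen after seeing the data). Ratios are of counts. The members and the lists were chosen with earlier results of these data known. Named in each comparison are the 3 members with the smallest p-values, and of the other lists up to 4 genes.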

Additional observations from a re-analysis of the deposited data

Results flagged for a closer look

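Within groups of 4 or 5 libraries, 24 of 152 tests by Dixon's criterion marked 1 library as far from the others. Chance would mark about 7.6 if the tests were independent. They are not, because the genes vary together and the same library is marked for many of them, so the 2 numbers cannot be compared. Most of the marks concern muscle-poor libraries in groups that were otherwise muscle-rich. EPAT day 2 replicate 1 was the lowest of its group for the summed fast genes, at 9.11 CPM where the others ran from 696 to 2559 CPM. In that library Myh4 was at 0.361 CPM, Mylpf at 1.35, Myl1 at 0.992, Tnnc2 at 0.451, Tnni2 at 1.26 and Tnnt3 at 1.98 CPM. Tnnt1 was at 1.53 CPM, Mybpc2 at 0.0902, Mybpc1 at 0.27, Acta1 at 0.992 and Ckm at 0 CPM. Combination day 2 replicate 3 was the lowest of its group for the summed fast genes, at 14.4 CPM where the others ran from 243 to 509 CPM. There Myh4 was at 1.44 CPM, Tnnc2 at 0.722, Tnnt3 at 3.03, Mybpc2 at 0.217, Acta1 at 3.32 and Ckm at 1.299 CPM.

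The slow myosin genes were marked in 3 groups. Myh7 was at 0 CPM in vehicle day 5 replicate 3, beside 2.48 to 5.14 CPM in the other libraries of its group. In anti-PD-1 day 5 replicate 4, Myh7 was at 62.6 CPM, Myl2 at 44.8 and Myl3 at 44.3 CPM, the highest of that group and of all libraries. In combination day 5 replicate 1, Myl2 was at 0.753 CPM (7 counts), the highest of its group, while Myh7 was at 0 in the same library.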

How the results depend on the processing

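The count of members called was 0 in all 17 comparisons and in all 383 recomputed counts over 50 settings, so no count changed with the processing. Over the table of all genes the calls per comparison ran from 0 to 4 in the main analysis, to 84 with DESeq2, 99 with only the groups compared, 205 when 1 library was left out and 1168 with limma-voom and quality weights. The smallest adjusted p of a member in any alternative was 0.0627, with limma-voom for anti-PD-1 against vehicle on day 2. The second number of the sample titles was also used as a replicate block, with 0 members called in every comparison. Libraries that share that number did not deviate together (mean correlation 0.004 over 133 pairs, beside -0.001 over 532 other pairs), so it does not pair them. Of 1130 recomputed fold changes of named members, 1104 kept their direction and 26 reversed, and each of the latter came from leaving out anti-PD-1 day 5 replicate 4 or from a limma fit on the log scale. The cause was not tested. Myl3 in the combination against EPAT on day 5 was 0.094 with limma-voom. For anti-PD-1 against vehicle on day 5, Tnni1, Tnnt1 and Tpm2 ran from -0.15, -0.101 and -0.398 without that library to 2.34, 2.90 and 1.24 without other libraries, stood at -0.147, -0.098 and -0.397 without the 5 libraries that stand apart and at -0.44, -2.15 and -0.572 with limma-voom, and Tnnt1 was at -0.038 with limma-trend. For the combination against anti-PD-1 on day 5, Myl2 and Myl3 ran from -7.46 and -5.03 when other libraries were left out to 1.26 and 0.818 without that one. They stood at 1.44 and 0.625 without the 5, Myh7 at 0.025 without the 5, and Myl3 at 1.43 with limma-voom. For day 5 against day 2 with anti-PD-1, Tnni1, Eno3 and Tpm2 ran from -0.106, -0.017 and -0.478 without that library to 2.55, 1.30 and 1.195 without others, and stood at -0.106, -0.016 and -0.477 without the 5 and at -0.684, -0.178 and -0.758 with limma-voom. The members' median for anti-PD-1 against vehicle on day 5 was -1.28 with limma-trend and -3.78 with limma-voom, beside 1.66 in the main analysis. The median slow-to-fast ratio of 5.66 per 100 was 5.67 at a minimum of 10 slow counts and 4.97 at 100. At this depth, slow myosin below 0.177 to 0.396 CPM could not be told from 0.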
